A study of Mus musculus with 15 samples.

Results

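Colon treated with azoxymethane and dextran sulfate sodium (AOM/DSS) was compared with untreated colon, 5 libraries against 5, the control and AOM/DSS libraries among the 15 of the study. All 10 came from colon of C57BL/6 mice with the genotype given as WT. The control group had no treatment named beyond the word control, and the AOM/DSS group is the colorectal cancer model of the study. The 5 remaining libraries, from model animals given WMW-H, entered only the filter on low values and the estimate of the spread between libraries. The sources used here give no dose, time, age or sex. The labels call the libraries replicates and name no animals, so the p-values measure only the spread between these libraries, which may be technical. Of 22063 genes in the table, the 12917 with at least 1 FPKM (the fragments of a transcript divided by its length and by the depth of the library) in at least 5 of the 15 libraries were compared.

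Azoxymethane is a carcinogen that the body converts to a DNA-alkylating compound, and dextran sulfate sodium is a polymer in drinking water that injures the colon epithelium. Given together they produce colitis and then tumours, mostly in the distal colon of the mouse, often with mutations that stabilise beta-catenin. Beta-catenin is the messenger of the Wnt pathway: it enters the nucleus, joins TCF and LEF proteins on DNA and switches on stem cell and growth genes, together with inhibitors that feed back on the pathway. The question set by the design is how the AOM/DSS model, without WMW-H, differed from untreated colon.

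Marker genes were compared with the labels first. The cell type is labelled colon epithelial cells, but no step that isolates them is described. Epithelial markers were high in both groups, with the keratin Krt8 at 2709 ± 14.2 FPKM in control and 2563 ± 18.8 in AOM/DSS (direction after quantile normalization given with the keratins) and the adhesion molecule Epcam at 733 ± 4.4 FPKM in control and 825 ± 9.37 in AOM/DSS (means ± SD, n = 5 libraries, here and throughout). The smooth muscle myosin Myh11 at 163 ± 2.16 FPKM in control and 141 ± 3.13 in AOM/DSS, the B cell receptor subunit Cd79a at 17 ± 1.55 FPKM in control and 15 ± 1.12 in AOM/DSS (lower, a call lost with TPM, in the exact rank test and without AOM/DSS replicate 2, 3 or 4 or control replicate 3, 4 or 5) and the endothelial marker Pecam1 at 18 ± 0.377 FPKM in control and 25.4 ± 0.984 in AOM/DSS show that other cells were also present. The common leucocyte marker Ptprc fell from 9.17 ± 0.509 to 5.92 ± 0.349 FPKM. Other leucocyte markers moved both ways: Cd3e fell, and S100a8 went from 0 in every control library to 11.6 ± 2.48 FPKM in AOM/DSS. In bulk RNA, fewer cells of a type and less RNA per cell cannot be told apart, and this holds for every marker below.

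Transcripts listed to check for other organs moved with the groups. Of 39 tested pancreatic genes 37 were lower in AOM/DSS, and the 43 listed genes together made 8.09% of the FPKM total in control (range over libraries 8.03% to 8.13%) and 2.38% in AOM/DSS (2.35% to 2.39%). Male accessory gland genes made 0.00692% and 0.598%, with all 13 tested members higher, 12 of which were under 1 FPKM in control. Paneth cell genes, listed as a check for other tissue, made 0.0143% and 0.237%. All 16 tested members were higher, 14 of which were under 1 FPKM in control. Members this low in control passed the filter only through libraries where they are high, which fixed their direction. Whether the Paneth cell transcripts came from other tissue or from the colon itself was not tested. Of 16 tested enterocyte genes of the small intestine 14 were lower. Which tissue was collected, and from which stretch of colon, cannot be told apart from the treatment. Depth read from the low values was 17400000 to 21100000 fragments a library, and 1 FPKM on a transcript of 2000 bases then stands for 34.8 to 42.2 fragments.

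Libraries of a group were close together. Correlations of log2(FPKM + 1) ran from 0.9948 to 0.9954 within control, from 0.9946 to 0.9954 within AOM/DSS and from 0.9392 to 0.9422 between them. Among 5949 genes with means of at least 10 FPKM in both groups, the median coefficient of variation was 4.36% in control and 4.07% in AOM/DSS. With so little spread, limma called 66.1% of the tested genes at an adjusted p under 0.05, 45.5% as higher in AOM/DSS and 20.6% as lower, and 6692 of the 8539 calls were changes of under 1.5-fold. Of all calls 68.9% were higher in AOM/DSS as deposited, 74.3% with TPM (FPKM rescaled to a common total), 51.4% with size factors (median of ratios) and 47.5% once quantile-normalized, so small shifts depend on the scaling. The groups did not overlap in 52.9% of genes, with AOM/DSS above control in 36.9% and below it in 16%. A call alone therefore says little about a list, and its members are read against these shares and against the median log2 change of all genes, 0.12, which is subtracted in each relative median below. At least 2-fold changes on the log2(FPKM + 1) scale were called for 537 genes higher in AOM/DSS (4.16%) and 247 lower (1.91%). A gene under the filter in 1 group could pass only through other libraries, and 227 of the 537 and 28 of the 247 had a mean under 1 FPKM in the group where they were low. For every gene below with such a mean the filter partly fixed the direction, also where this is not repeated.

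**Figure D1:**
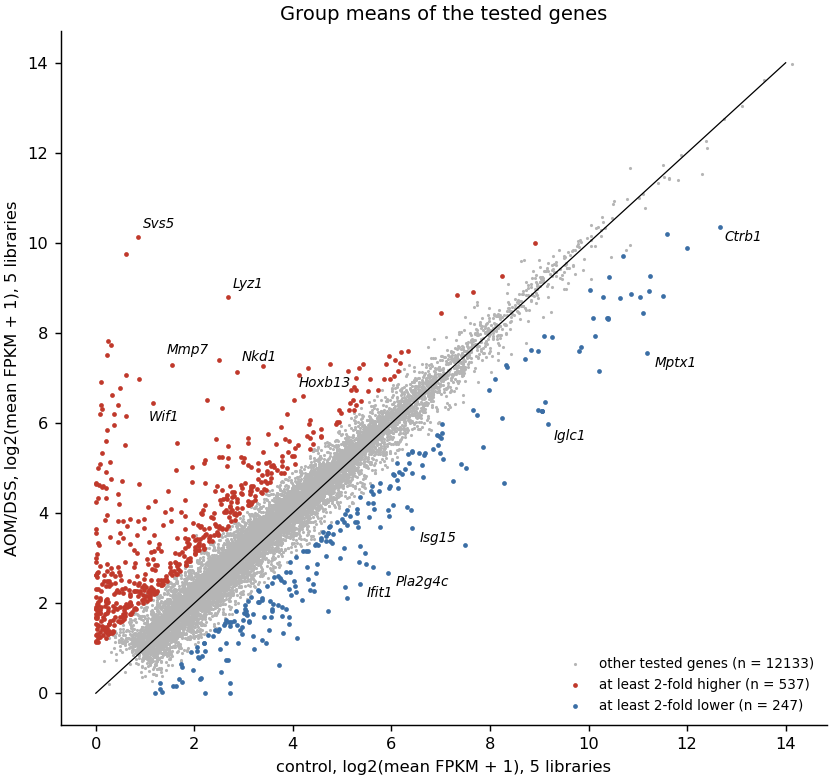
Mean level of each of the 12917 tested genes in control (x axis) and AOM/DSS (y axis), as log2(mean FPKM + 1) over 5 libraries, with the line of equality. The 537 red genes were called at least 2-fold higher in AOM/DSS and the 247 blue genes at least 2-fold lower; Svs5 is an accessory gland gene, Lyz1 a Paneth cell gene and Ctrb1 a pancreatic gene.

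The 10 largest rises among genes at 1 FPKM or more in both groups, without the lists of other organs, included 3 inhibitors of Wnt signalling, Wif1, Nkd1 and Apcdd1, and 2 secreted proteases, Mmp7 and Mcpt1. Mmp7 (ENSMUSG00000018623), a metalloproteinase of glands and tumours, stood at 1.91, 2.26, 1.67, 1.85 and 1.9 FPKM in the control libraries and at 152, 156, 147, 155 and 165 FPKM in the AOM/DSS libraries. Mmp7 was not on the Paneth cell list, which rose in the same libraries, and the part of Paneth cells in its rise was not tested. Wif1 (ENSMUSG00000020218), a secreted protein that binds Wnt ligands, stood at 1.26, 0.925, 1.02, 1.72 and 1.3 FPKM in the control libraries and at 88.3, 86.2, 84.3, 86 and 84.5 FPKM in the AOM/DSS libraries. Every AOM/DSS library lay far above every control library for both, with log2 changes of 5.74 (SE 0.05, limma adjusted p = 2.13e-22) and 5.28 (SE 0.07, limma adjusted p = 1.96e-19). Nkd1 (ENSMUSG00000031661) and Apcdd1 (ENSMUSG00000071847), which inhibit Wnt signalling inside the cell and at its surface, rose from 6.3 ± 0.436 to 139 ± 2.15 and from 2.15 ± 0.182 to 46.2 ± 1.91 FPKM. The other 6 follow. Spock2 (ENSMUSG00000058297), a proteoglycan, rose from 4.65 ± 0.342 to 168 ± 2.23 FPKM. The chloride channel regulator Clca4b (ENSMUSG00000074195) rose from 3.75 ± 0.47 to 89.5 ± 1.05 FPKM. Wfdc18 (ENSMUSG00000000983) rose from 9.57 ± 1.42 to 152 ± 6.01 FPKM. The iron-chelator-binding lipocalin Lcn2 (ENSMUSG00000026822) rose from 4.88 ± 0.727 to 79.1 ± 3.26 FPKM. The lipoxygenase Alox15 (ENSMUSG00000018924) rose from 2.07 ± 0.316 to 29.9 ± 0.959 FPKM. The mast cell protease Mcpt1 (ENSMUSG00000022227) rose from 4.46 ± 0.723 to 49.1 ± 2.11 FPKM.

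Interferon-induced genes were frequent among the 10 largest falls. Ifit1 (ENSMUSG00000034459), Ddx60 (ENSMUSG00000037921), Isg15 (ENSMUSG00000035692), Oasl2 (ENSMUSG00000029561) and Iigp1 (ENSMUSG00000054072), all antiviral or antimicrobial effectors, fell, with log2 changes of -2.93, -2.91, -2.77, -2.54 and -2.86. Apol9a (ENSMUSG00000057346) and Apol9b (ENSMUSG00000068246), near-identical apolipoprotein L genes between which reads may be split, fell from 48.1 ± 2.37 to 5.95 ± 0.973 and from 33.5 ± 0.91 to 3.3 ± 0.597 FPKM. The largest fall was Mptx1 (ENSMUSG00000026531), a mucosal pentraxin, which stood at 2339, 2369, 2325, 2333 and 2293 FPKM in the control libraries and at 176, 191, 183, 190.5 and 192 FPKM in the AOM/DSS libraries. Pla2g4c (ENSMUSG00000033847), a cytosolic phospholipase A2, fell from 60 ± 1.27 to 5.37 ± 0.202 FPKM. Iglc1 (ENSMUSG00000105906), a lambda light chain constant gene, fell from 582 ± 35 to 61.9 ± 3.98 FPKM. No control library overlapped an AOM/DSS library in any of these 20 genes, as the rule that chose them required.

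Wnt feedback inhibitors, which are both targets and brakes of the pathway, were higher as a group: of 17 tested 15 rose and 1 fell, 9 of them by at least 2-fold, with a relative median of 1.13. Of the 17, 4 were under 1 FPKM in control, which partly fixed their direction. Among the 12 with means of at least 1 FPKM in both groups 11 rose, with a relative median of 1.22. Axin2, the scaffold that marks beta-catenin for destruction and the usual reporter of the pathway, stood at 12.8, 13.6, 14.3, 17.6 and 12.7 FPKM in the control libraries and at 45.6, 48.2, 48.7, 46.5 and 47.9 FPKM in the AOM/DSS libraries. The ubiquitin ligases Rnf43 and Znrf3, which remove Wnt receptors, rose from 7.2 ± 0.333 to 24.3 ± 0.495 and from 2.21 ± 0.184 to 7.55 ± 0.353 FPKM. Notum, an enzyme that inactivates Wnt proteins by removing their lipid, went from 0.157 ± 0.041 to 47.4 ± 1.82 FPKM, a gene under the filter in control. Among antagonists that bind ligands or receptors, Dkk2 rose from 0.271 ± 0.0992 to 2.85 ± 0.18 and Dkk3 from 8.7 ± 0.301 to 22.1 ± 0.462 FPKM. Sostdc1 fell from 1.14 ± 0.17 to 0.594 ± 0.339 FPKM, and Sfrp5 was under the filter and not tested, at 0.935 ± 0.124 FPKM in control and 0.744 ± 0.132 in AOM/DSS.

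Among Wnt ligands and R-spondins only 9 of 25 listed genes were tested, of which 4 rose and 1 fell. Wnt6 stood at 0.571, 0.139, 0.511, 0.309 and 0.335 FPKM in the control libraries and at 13.6, 13, 12.3, 14.3 and 13.2 FPKM in the AOM/DSS libraries. Wnt10a went from 0.026 ± 0.0288 to 9.12 ± 0.784 FPKM. Wnt5b rose from 1.39 ± 0.282 to 2.4 ± 0.287 FPKM. Wnt5a, a ligand of the beta-catenin-independent branch, rose from 2.21 ± 0.116 to 3.13 ± 0.347 FPKM. Both Wnt6 and Wnt10a were under 1 FPKM in control, so their direction was partly fixed by the filter. Wls, which carries Wnt proteins to the cell surface, fell from 40.2 ± 1.91 to 33 ± 1.5 FPKM, and the R-spondin Rspo3, a stromal amplifier of Wnt signals, was at 0.963 ± 0.231 FPKM in control and 0.811 ± 0.0967 in AOM/DSS and was not called.

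Nuclear effectors and targets of the pathway rose in 20 of 21 tested cases, 7 by at least 2-fold, with a relative median of 0.54. Lef1, Prox1 and Sp5 were under 1 FPKM in control, which partly fixed their direction. Among the 18 members with means of at least 1 FPKM in both groups 17 rose and 1 fell, with a relative median of 0.39. Beta-catenin itself, Ctnnb1, rose from 229 ± 2.27 to 323 ± 3.69 FPKM. The DNA-binding partners Tcf7 and Lef1 rose from 5.26 ± 0.283 to 19.2 ± 0.377 and from 0.722 ± 0.0707 to 5.98 ± 0.385 FPKM. Prox1, a homeobox factor of intestinal tumours, went from 0.834 ± 0.15 to 24.2 ± 0.965 FPKM. Sp5, a repressor induced by Wnt, rose from 0.465 ± 0.118 to 13.1 ± 0.947 FPKM. Myc rose from 12.8 ± 0.566 to 21.4 ± 1.69 FPKM. The member that fell was Ccnd2, from 34.6 ± 1.79 to 31.5 ± 1.8 FPKM, a call lost with TPM, in the exact rank test and without AOM/DSS replicate 2 or control replicate 5. The promoter of Sp5 carries 1 match to the TCF motif CTTTGAT within 250 bases before its start, on the plus strand of chr2:70474804-70474840 (GRCm38.p6, RefSeq), shown in capitals. The motif, searched on both strands, occurs for 1160 of the 27025 genes in the promoter table (4.29%). It was not found in the promoters of Axin2, Nkd1, Wif1, Lef1, Tcf7, Prox1 and Rnf43. Mmp7 was also searched: 1 promoter held a match 247 bases before its start, and another held a match only after its start.
Sp5: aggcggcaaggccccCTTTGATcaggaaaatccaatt

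Crypt stem cell genes moved less evenly: 11 of 17 tested rose and 4 fell, with a relative median of 0.31. Lgr5, the R-spondin receptor of the cells at the crypt base, stood at 1.54, 1.87, 1.9, 1.75 and 2.06 FPKM in the control libraries and at 6.52, 6.12, 6.74, 5.82 and 6.64 FPKM in the AOM/DSS libraries, with no overlap of the groups. Smoc2, another gene of these cells, rose from 10.4 ± 0.394 to 34.3 ± 1.65 FPKM. Ascl2, their transcription factor, rose from 3.88 ± 0.553 to 7.42 ± 0.399 FPKM. Tnfrsf19 rose from 1.12 ± 0.173 to 9.3 ± 0.405 FPKM. Prom1 rose from 91.5 ± 1.96 to 127 ± 2.9 FPKM. Lrig1, a brake on EGF receptors that marks a slower-cycling pool, fell from 26.4 ± 0.36 to 23.4 ± 0.307 FPKM. Rgmb fell from 25.3 ± 2.74 to 18.7 ± 1.32 FPKM. The chloride cotransporter Slc12a2 fell from 49.1 ± 0.902 to 38.1 ± 0.836 FPKM. So Lgr5, Smoc2 and Ascl2 rose while Lrig1 fell in the same libraries.

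**Figure D2:**
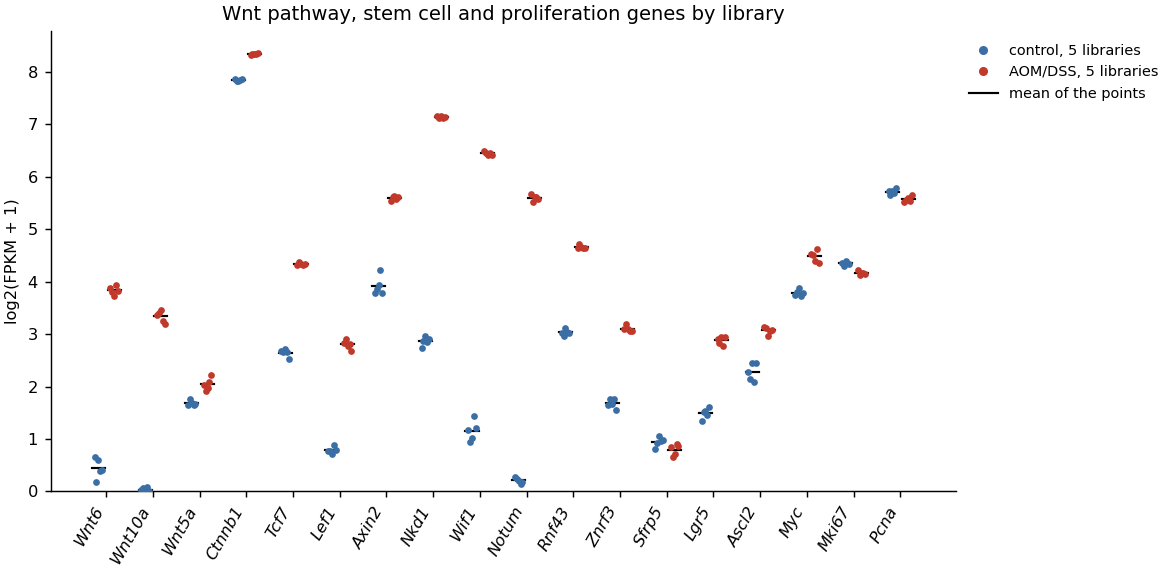
Level of 18 Wnt pathway, stem cell and proliferation genes as log2(FPKM + 1) in each of 5 control (blue) and 5 AOM/DSS (red) libraries, with the mean of the points as a line. The points of a group lie close together, the groups part clearly for Axin2, Nkd1, Wif1, Notum and Lef1, and they lie near each other for Sfrp5, Mki67 and Pcna.

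Proliferation genes did not move with the Wnt targets. Of 35 DNA replication genes 12 rose and 6 fell, with a relative median of -0.12, and of 32 mitosis genes 8 rose and 8 fell, with a relative median of -0.08, and none of either list changed by 2-fold. These counts depend on scaling: with size factors 8 replication genes were higher and 15 lower, and 2 mitosis genes higher and 13 lower. Mki67, present in all cycling cells, stood at 19.6, 18.7, 20.1, 19.4 and 19 FPKM in the control libraries and at 17.6, 16.4, 16.8, 16.9 and 16.7 FPKM in the AOM/DSS libraries, lower in AOM/DSS. The replication clamp Pcna also fell, from 51.5 ± 1.75 to 46.4 ± 1.8 FPKM. The helicase subunit Mcm2 rose from 15.1 ± 0.785 to 18.7 ± 0.518 and the ribonucleotide reductase subunit Rrm2 from 11.3 ± 0.998 to 15.1 ± 1.02 FPKM. Cdk1, the kinase that starts mitosis, was at 23.2 ± 1.09 FPKM in control and 22.3 ± 1.84 in AOM/DSS, Top2a at 19.6 ± 0.332 FPKM in control and 19.5 ± 0.441 in AOM/DSS and Cdc20 at 25.7 ± 0.779 FPKM in control and 27.7 ± 0.7 in AOM/DSS, and none was called. Cdk1 and Top2a were called lower with size factors and after quantile normalization. Cdc20 was called higher with TPM, in the exact rank test, with only the 10 libraries, and without WMW-H replicate 3 or control replicate 3. Of 30 ribosome biogenesis genes, which Myc is known to drive, 12 rose and 3 fell around a relative median of -0.02, and with size factors 9 were higher and 7 lower. Npm1 and Ncl, the abundant nucleolar proteins, were not called at 115 ± 2.64 FPKM in control and 117 ± 5.47 in AOM/DSS and 30.5 ± 1.13 FPKM in control and 29.5 ± 0.965 in AOM/DSS.

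Genes of the p53 response rose in 12 of 18 tested cases and fell in 4 (relative median 0.26). Phlda3, an inhibitor of Akt, rose from 8.02 ± 0.632 to 18 ± 0.702 FPKM. The stress cytokine Gdf15 rose from 1.24 ± 0.204 to 3.19 ± 0.537 FPKM. Pmaip1, which promotes cell death, rose from 3.34 ± 0.129 to 7.01 ± 0.341 FPKM. Cdkn1a, the cell cycle inhibitor with the highest level in this list, fell from 173 ± 3.57 to 139.8 ± 1.89 FPKM. The death receptor Fas fell from 4.91 ± 0.729 to 3.48 ± 0.431 FPKM. The list thus held members moving both ways.

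Growth factor pathways between epithelium and stroma moved modestly upwards. For the EGF receptor and its ligands 10 of 12 tested genes rose, none by 2-fold, with a relative median of 0.21. The ligands Tgfa, Areg and Ereg were among them. Tgfa rose from 10.9 ± 0.484 to 18.4 ± 0.975 FPKM, Areg rose from 11.5 ± 0.888 to 17 ± 0.879 FPKM and Ereg rose from 1.26 ± 0.148 to 2.03 ± 0.14 FPKM. Egfr itself rose from 7.08 ± 0.395 to 9.17 ± 0.487 FPKM. In the BMP pathway, which opposes Wnt and drives differentiation towards the crypt top, 19 of 26 rose and 5 fell (relative median 0.23). Its antagonist Grem1 rose from 6.09 ± 0.462 to 13.3 ± 0.764 FPKM. Its ligand Bmp7 rose from 3.21 ± 0.287 to 8.78 ± 0.36 FPKM. Its target Id1 rose from 158 ± 5.8 to 229.9 ± 5.09 FPKM. The ligand Bmp3 fell from 8.94 ± 0.601 to 4.52 ± 0.553 FPKM. Of 22 TGF-beta and activin genes 17 rose (relative median 0.35). Control means were under 1 FPKM for 3 of the 22, Inhbb among them, which partly fixed their direction. Among the 19 with means of at least 1 FPKM in both groups 14 rose and 1 fell. Inhbb, an activin subunit, rose from 0.409 ± 0.081 to 2.8 ± 0.205 FPKM. The repressor Tgif1 rose from 19.3 ± 1.6 to 42.2 ± 2.04 FPKM. In the Notch pathway, which decides between absorptive and secretory fates, 13 of 21 rose and 1 fell. Hes1, its effector in absorptive progenitors, rose from 24.7 ± 1.27 to 35.5 ± 1.8 FPKM. Atoh1, which commits cells to the secretory fate, was the member that fell, from 39.4 ± 2.04 to 28.4 ± 0.916 FPKM.

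Eph receptors and ephrins, which position cells along the crypt, rose in 9 of 13 tested cases (relative median 0.16). Ephb6, which lacks kinase activity, stood at 0.654, 0.412, 0.784, 0.511 and 0.695 FPKM in the control libraries and at 13.7, 13.6, 14.7, 13.6 and 12.6 FPKM in the AOM/DSS libraries, the only member changed by 2-fold. Every control value of Ephb6 was under 1 FPKM, so the filter partly fixed its direction. Epha2 rose from 11.5 ± 0.548 to 16.1 ± 0.924 FPKM. Its ligand Efna1 rose from 35.2 ± 1.12 to 48.5 ± 2.27 FPKM. Epha7 fell from 1.32 ± 0.251 to 0.79 ± 0.193 FPKM. Of 7 tested Hedgehog genes, which signal from epithelium to stroma, 5 were higher and 2 lower, none by 2-fold (relative median 0.12). Among all genes 45.5% were higher and 20.6% lower. The ligand Ihh rose from 38.4 ± 1.12 to 46.3 ± 1.22 FPKM. Its stromal target Gli1 fell from 1.43 ± 0.193 to 1.08 ± 0.161 FPKM.

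Genes of the fetal-like and regenerating epithelium rose in 14 of 16 tested cases and fell in 1, 6 by at least 2-fold (relative median 0.61). Ly6d, a small surface protein, stood at 7.63, 6.4, 8.01, 8.18 and 7.03 FPKM in the control libraries and at 45.6, 49.3, 41.8, 47.1 and 45.6 FPKM in the AOM/DSS libraries, with no overlap of the groups. Osteopontin Spp1 rose from 1.35 ± 0.318 to 6.15 ± 0.744 FPKM. Anxa1 rose from 39.5 ± 0.934 to 53 ± 3.59 FPKM. S100a6 rose from 508 ± 34.2 to 788 ± 54.8 FPKM. The member that fell was Ly6a (Sca-1), from 384 ± 8.64 to 348 ± 3.9 FPKM, a call lost with TPM and after quantile normalization.

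Keratins, the filaments of epithelial cells, rose in 13 of 16 tested cases, 7 by at least 2-fold (relative median 0.68). Of the 16, 6 were under 1 FPKM in control, which partly fixed their direction. Among the 10 keratins with means of at least 1 FPKM in both groups 7 rose and 2 fell, with a relative median of 0.09. The rises were in keratins outside the main pair of the gut. Krt23 stood at 6.5, 4.69, 5.83, 5.32 and 4.64 FPKM in the control libraries and at 43.3, 46, 41.7, 43.5 and 46.4 FPKM in the AOM/DSS libraries. Krt36, a hair-type keratin, rose from 0.155 ± 0.0742 to 22.4 ± 0.991 FPKM. Krt14, a keratin of basal cells in squamous epithelium, rose from 0.164 ± 0.109 to 6.36 ± 0.605 FPKM. Krt20, the keratin of mature colonocytes, fell from 575 ± 9.37 to 446 ± 7.97 FPKM, and Krt8 was lower by 0.08 on the log2 scale, a call lost with TPM and turned to a rise of 0.26 after quantile normalization. Of 15 squamous epithelium genes only 4 were tested and all 4 rose from under 1 FPKM in control. The 15 listed genes together took up 0.000355% of the FPKM total in control and 0.00273% in AOM/DSS, and the part of squamous tissue in the keratin result was not tested.

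Of 11 tested claudins, which set what tight junctions let through, 6 rose and 1 fell (relative median 0.03). Among all genes 45.5% were higher and 20.6% lower. Control means were under 1 FPKM for 2 of the 11, Cldn6 among them, which partly fixed their direction. Cldn4, a claudin that seals, stood at 23.7, 23.7, 28.1, 27.6 and 26.8 FPKM in the control libraries and at 162, 159, 160.1, 155 and 155 FPKM in the AOM/DSS libraries. Cldn6, known from embryonic epithelium, went from 0.147 ± 0.044 to 4.21 ± 0.393 FPKM. The pore-forming Cldn15 fell from 144 ± 1.64 to 83 ± 2.28 FPKM. Cldn2, another pore former, at 52.3 ± 1.88 FPKM in control and 53.8 ± 0.523 in AOM/DSS, Cldn7 at 484 ± 12.3 FPKM in control and 504 ± 14 in AOM/DSS and Cldn8 at 6.21 ± 0.649 FPKM in control and 6.99 ± 0.749 in AOM/DSS were not called. In the CEA family of adhesion molecules 5 of 6 tested rose, led by Ceacam10 from 79.7 ± 1.91 to 191 ± 5.22 and Ceacam2 from 1.58 ± 0.219 to 4.34 ± 0.275 FPKM. Ceacam1, the most abundant member, fell from 2256 ± 22.5 to 1748 ± 14.5 FPKM, a call turned to a rise of 0.12 on the log2 scale after quantile normalization.

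Transcription factors of intestinal identity moved both ways, 7 higher and 9 lower of 19 tested (relative median -0.23). Cdx2, the master regulator of gut epithelium, stood at 105, 107, 113, 107 and 111 FPKM in the control libraries and at 64.8, 64, 63.8, 62.9 and 62.2 FPKM in the AOM/DSS libraries, so every AOM/DSS library lay below every control library. Hnf4g, of mature enterocytes, fell from 8.83 ± 0.467 to 4.35 ± 0.272 FPKM. Ppara fell from 5.85 ± 0.471 to 3.67 ± 0.619 FPKM. Foxa2 rose from 8.67 ± 0.732 to 13.2 ± 0.212 FPKM. Gata5 rose from 0.773 ± 0.119 to 3.83 ± 0.265 FPKM, from under the filter in control. Elf3 rose from 249 ± 3.86 to 336 ± 4.54 FPKM. Gata4 at 1.03 ± 0.128 FPKM in control and 0.345 ± 0.0685 in AOM/DSS and Pdx1 at 0.232 ± 0.108 FPKM in control and 0.759 ± 0.132 in AOM/DSS, both of proximal gut, were under the filter and not tested.

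Hox genes carry positional identity along the body axis, with higher numbers more posterior. Of 39 Hox genes listed, 20 were tested: 4 rose and 7 fell, and with size factors 4 were higher and 12 lower. Hoxb13, the most posterior gene of its cluster and a marker of distal colon and rectum, stood at 14.7, 15, 16.8, 15.7 and 14.2 FPKM in the control libraries and at 90.1, 86.8, 88.6, 93 and 91.3 FPKM in the AOM/DSS libraries. Hoxd13 went from 0.166 ± 0.0405 to 3.24 ± 0.396 FPKM, from under the filter in control. Hoxa9 and Hoxa10, named after their values were seen, were the other 2 that rose. Hoxa9 rose from 7.89 ± 0.677 to 16.6 ± 1.93 FPKM and Hoxa10 rose from 12.8 ± 0.796 to 16.7 ± 1.49 FPKM. Hoxb3, Hoxb7 and Hoxb8 fell from 3.36 ± 0.34 to 1.57 ± 0.166, from 6.76 ± 0.919 to 3.59 ± 0.668 and from 8.19 ± 0.909 to 4.44 ± 0.372 FPKM. Within the Hoxb cluster the most posterior gene thus rose and anterior members fell, and the 14 lower of 16 small-intestinal enterocyte genes moved in the same libraries. The ileal bile acid transporter Slc10a2 fell from 18.7 ± 0.476 to 4.82 ± 0.247 FPKM. The fatty acid binder Fabp2 fell from 156 ± 6.19 to 84.1 ± 3.97 FPKM. The retinol binder Rbp2 rose from 11.7 ± 1.23 to 29.8 ± 1.99 FPKM. A difference in the stretch of gut sampled cannot be told apart from an effect of the treatment on these genes.

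**Figure D3:**
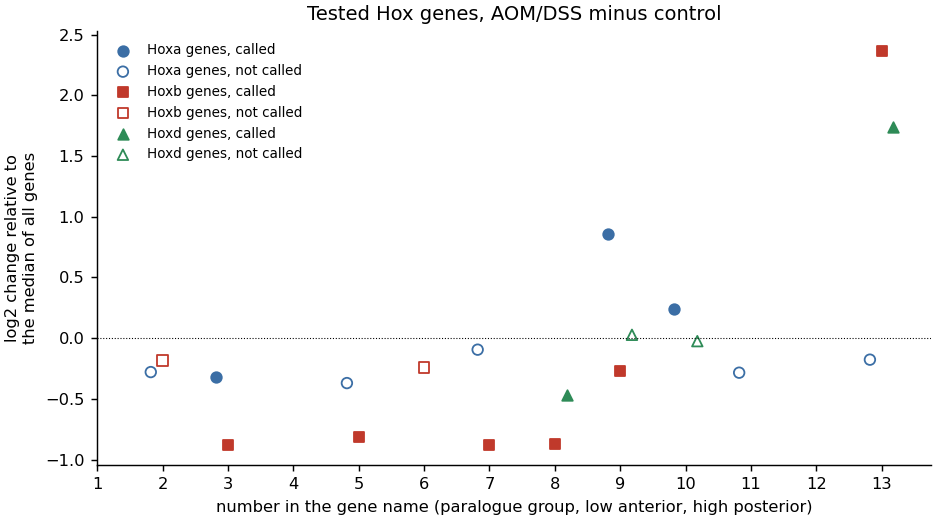
Log2 change of the 20 tested Hox genes, AOM/DSS minus control and relative to the median of all genes (y axis), by the number in the gene name (x axis). Hoxb13 and Hoxd13 stand highest, at 2.37 and 1.74, and Hoxb3, Hoxb5, Hoxb7 and Hoxb8 lowest.

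Goblet cells secrete the mucus layer, and 19 of 22 of their genes fell, 5 by at least 2-fold, with a relative median of -0.59. Muc2, the gel-forming mucin of the colon, stood at 1434, 1368, 1407, 1400.2 and 1437 FPKM in the control libraries and at 846, 807, 825, 811 and 796 FPKM in the AOM/DSS libraries, with no overlap. Retnlb, a secreted defence peptide, fell from 1339 ± 72.8 to 318 ± 19.6 FPKM. The ribonuclease Ang4 fell from 1261 ± 13.9 to 444 ± 6.95 FPKM. The mucus-processing Clca1 fell from 3102 ± 44.3 to 1174 ± 13.1 FPKM. The mucin partner Fcgbp fell from 941 ± 10.8 to 672 ± 6.25 FPKM. The trefoil peptide Tff3 and the anion channel Best2 rose, from 677 ± 34.9 to 918 ± 37 and from 4 ± 0.297 to 10.2 ± 0.645 FPKM. Among mucin core genes Muc2 and the membrane mucin Muc3a fell, the latter from 42.1 ± 1.14 to 25.9 ± 0.824 FPKM. Muc4 fell from 36.5 ± 0.905 to 32.2 ± 0.886 FPKM. Muc1 rose from 5 ± 0.453 to 8.56 ± 0.788 FPKM. The gastric Muc6 rose from 0.195 ± 0.0277 to 1.48 ± 0.0426 FPKM, from under the filter. Mucin glycosyltransferases fell in 24 of 37 cases and rose in 7 (relative median -0.34). B3gnt6, which builds the core of colonic mucin glycans, fell from 28.8 ± 0.812 to 12.9 ± 0.803 FPKM. C1galt1c1, the chaperone of another core enzyme, fell from 31.1 ± 1.67 to 13.5 ± 1.14 FPKM. The sialyltransferase St3gal4 fell from 453 ± 8.39 to 197 ± 13.7 FPKM. B3gnt7 rose from 56.7 ± 2 to 125 ± 2.86 FPKM. Of 20 genes for protein folding in the endoplasmic reticulum 13 fell. Agr2, needed for Muc2 folding, fell from 1667 ± 18.5 to 832 ± 11.3 FPKM. The chaperone Hspa5 fell from 153 ± 5.11 to 134 ± 4.15 FPKM. Pancreatic acini also make folding proteins in quantity and their list fell in the same libraries, and its part here was not tested.

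Ion and water transport, the main work of surface colonocytes, was lower in 24 of 39 tested genes and higher in 8 (relative median -0.36). Slc26a3, the chloride and bicarbonate exchanger, stood at 147, 135, 139, 136 and 139 FPKM in the control libraries and at 85.9, 87.8, 85.7, 88.2 and 85.7 FPKM in the AOM/DSS libraries. The water channels Aqp4 and Aqp8 fell from 77.5 ± 1.59 to 45.4 ± 1.31 and from 255 ± 4.49 to 201 ± 4.82 FPKM. The chloride channel Cftr fell from 20.4 ± 0.403 to 11.4 ± 0.435 FPKM. Guanylin, Guca2a, fell from 1739 ± 31.7 to 921 ± 12.6 FPKM. Against these, Clca4b and the colonic proton pump Atp12a rose, the latter from 5.44 ± 0.445 to 36.4 ± 1.25 FPKM, and the sodium channel subunit Scnn1b was not called at 3.39 ± 0.285 FPKM in control and 3.72 ± 0.234 in AOM/DSS. Carbonic anhydrases were lower in 6 of 10 cases, with the abundant Car1 falling from 3598 ± 61.5 to 2692 ± 15.2 FPKM. Car8 fell from 18.6 ± 0.816 to 6.01 ± 0.466 FPKM. The hypoxia-induced Car9 rose from 32.2 ± 0.93 to 42.9 ± 0.856 FPKM. In the brush border 13 of 21 genes fell and 3 rose. Tmigd1, an adhesion protein, fell from 76.5 ± 2.26 to 30.6 ± 3.03 FPKM. Villin, Vil1, which bundles actin, fell from 268 ± 1.66 to 237 ± 1.69 FPKM.

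Genes of butyrate use and of the respiratory chain were mostly lower. Of 15 genes for short-chain fatty acid uptake and ketone synthesis, which feed on bacterial butyrate, 12 fell and 1 rose (relative median -0.42). The butyrate transporter Slc5a8 fell from 36.2 ± 0.597 to 29 ± 0.88 FPKM. Acsm3, which activates medium-chain acids, fell from 35.8 ± 1.2 to 17.6 ± 1.2 FPKM. Nuclear genes of the respiratory chain fell in 47 of 78 cases and rose in 3, none by 2-fold, with a relative median of -0.27: Uqcrb, of complex III, fell from 240.2 ± 9.03 to 177 ± 4.82 FPKM. Ndufs1, of complex I, fell from 59.5 ± 3.01 to 45.2 ± 0.834 FPKM. Among 28 glycolysis, pentose phosphate and hypoxia genes 19 rose and 3 fell. The lactate exporter Slc16a3 stood at 6.15, 6.6, 7.08, 6.29 and 9.02 FPKM in the control libraries and at 37.4, 36.3, 35.7, 36.5 and 35.4 FPKM in the AOM/DSS libraries, the only member changed by 2-fold. Gapdh rose from 1461 ± 22.8 to 1941 ± 23.8 FPKM. Ldha at 738 ± 9.95 FPKM in control and 733 ± 5.75 in AOM/DSS and Hk2 at 36.5 ± 0.945 FPKM in control and 37.6 ± 1.03 in AOM/DSS were not called. Fatty acid oxidation genes were lower in 12 of 21 cases and higher in 7, with Pdk4, which turns pyruvate away from the mitochondria, rising from 3.04 ± 0.539 to 8.55 ± 0.889 FPKM. Of 26 cholesterol and fatty acid synthesis genes 11 rose and 11 fell. Fasn and Scd1, of fatty acid synthesis, rose from 72.5 ± 1.17 to 104 ± 1.83 and from 87.2 ± 1.83 to 152 ± 2.91 FPKM. Idi1 and Msmo1, of cholesterol synthesis, fell from 61.5 ± 2.19 to 39.6 ± 1.01 and from 101 ± 3.54 to 74.7 ± 1.06 FPKM. Adipocyte genes, 9 of 12 lower, moved in the same libraries, with Adipoq falling from 21.4 ± 1.84 to 14.2 ± 0.213 FPKM, and their part in the lipid genes was not tested.

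Detoxification was lower mainly among conjugating enzymes. Phase II genes fell in 18 of 31 cases and rose in 7, 6 of the falls at least 2-fold (relative median -0.31). The sulfotransferases Sult1a1 and Sult1d1 fell from 199.8 ± 4.9 to 76.8 ± 3.98 and from 67.8 ± 1.98 to 25.6 ± 1.8 FPKM. The glucuronosyltransferase Ugt2b5 fell from 11.9 ± 0.713 to 2.9 ± 0.299 FPKM. The glutathione transferases Gstm7 and Gstm5 rose from 8.17 ± 0.796 to 23.4 ± 0.803 and from 28.6 ± 1.85 to 48.4 ± 2.02 FPKM. Cytochromes P450 of families 2 to 4 split, 11 higher and 12 lower of 25, with Cyp2c65 and Cyp4f14 falling from 84.2 ± 2.04 to 40.3 ± 1.22 and from 106 ± 2.54 to 52.8 ± 2.09 FPKM. NRF2 antioxidant genes rose in 12 of 18 cases and fell in 3 (relative median 0.14): Hmox1, which breaks down haem, rose from 6.32 ± 0.911 to 16.3 ± 1.03 FPKM. The selenoprotein Gpx2 rose from 461 ± 9.81 to 598 ± 13.1 FPKM. The cystine carrier Slc7a11 rose from 0.472 ± 0.11 to 1.84 ± 0.0596 FPKM, from under the filter in control. Nqo1 fell from 29.5 ± 1.78 to 23 ± 0.716 FPKM.

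In metal handling 14 of 26 tested genes were higher, 7 of them by at least 2-fold, and 8 were lower (relative median 0.16). Among all genes 45.5% were higher and 20.6% lower. Of the 26, 3 were under 1 FPKM in control, Mt4 and Slc30a2 among them, which partly fixed their direction. Mt4, a metallothionein of squamous epithelium, went from 0.166 ± 0.188 to 56.8 ± 7.01 FPKM. Mt3 rose from 10.3 ± 1.61 to 53 ± 6.6 FPKM. Mt1 rose from 164 ± 4.56 to 250.3 ± 7.25 FPKM. The zinc exporter Slc30a2 rose from 0.374 ± 0.0987 to 20.5 ± 0.653 FPKM. The iron store Fth1 rose from 1829 ± 27.8 to 3217 ± 32.6 FPKM. The transferrin receptor Tfrc, the entry of iron, fell from 35.3 ± 1.04 to 20.4 ± 0.964 FPKM. Amino acid transporters split, 11 higher and 9 lower of 23: Slc7a8 rose from 5.62 ± 0.282 to 15.4 ± 0.287 FPKM. Slc6a14, the most abundant, fell from 127 ± 4.87 to 50.1 ± 1.33 FPKM. Genes of the ATF4 amino acid stress response split as well, 8 higher and 8 lower of 19, with Atf4 falling from 113 ± 1.03 to 99.4 ± 1.94 FPKM. Shmt2 rose from 15 ± 0.561 to 23.3 ± 0.823 FPKM.

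Genes of rare secretory cells moved both ways, more of them falling than rising. Of 16 tested enteroendocrine genes 8 fell and 3 rose. Somatostatin, Sst, fell from 61.9 ± 3.66 to 23.1 ± 1.36 FPKM. Proglucagon, Gcg, fell from 63.2 ± 3.92 to 35 ± 1.74 FPKM. Neurotensin, Nts, fell from 12 ± 0.495 to 5.06 ± 0.577 FPKM. The amine transporter Slc18a1 rose from 2.12 ± 0.233 to 9.94 ± 0.316 FPKM, the change of largest fold in the list. Ddc, which makes amines, rose from 15.8 ± 0.661 to 21.1 ± 1.09 FPKM. Peptide YY, Pyy, rose from 84.9 ± 2.71 to 119 ± 8.49 FPKM, and Insl5 was not called at 20.5 ± 1.49 FPKM in control and 22 ± 1.86 in AOM/DSS. Sst and Gcg are also made by pancreatic islets, whose list fell in the same libraries, and its part was not tested. Tuft cell genes, which sense parasites and microbes, fell in 9 of 14 cases and rose in 3 (relative median -0.51): the channel Trpm5 fell from 4.56 ± 0.286 to 1.62 ± 0.179 FPKM. The kinase Dclk1 fell from 5.55 ± 0.69 to 3.19 ± 0.642 FPKM. Avil rose from 4.87 ± 0.775 to 22 ± 0.79 FPKM. The summed level of the listed tuft cell genes was 65.5 FPKM in control and 70.3 FPKM in AOM/DSS.

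Chemokine genes split in direction, while interleukin-1 family genes mostly rose. The CXC chemokines that call neutrophils were low in control. Cxcl5 stood at 0, 0.036, 0.247, 0.136 and 0.136 FPKM in the control libraries and at 23.8, 23.4, 23.8, 22.1 and 23.4 FPKM in the AOM/DSS libraries. Cxcl1 rose from 0.18 ± 0.0874 to 4.57 ± 0.788 FPKM and Cxcl2 rose from 0.0378 ± 0.0401 to 5.47 ± 1.05 FPKM. Where a control mean was under 1 FPKM, the direction was partly fixed by the filter. In the same family the interferon-induced Cxcl9 and Cxcl10 fell, from 2.31 ± 0.239 to 0.999 ± 0.221 and from 7.51 ± 0.741 to 3.15 ± 0.879 FPKM, and of 13 tested genes 7 rose and 4 fell. Among the 8 with means of at least 1 FPKM in both groups 3 rose and 3 fell. CC chemokines and receptors split likewise, 9 higher and 6 lower of 24 (relative median -0.06), against 45.5% and 20.6% of all genes. Ccl22 rose from 1.37 ± 0.19 to 3.8 ± 0.0899 FPKM. Ccl5, which attracts lymphocytes, fell from 29.9 ± 1.83 to 7.05 ± 0.613 FPKM. In the interleukin-1 family 9 of 11 tested rose (relative median 0.59). Control means were under 1 FPKM for 2 of the 11, which partly fixed their direction. Il1b stood at 1.15, 1.14, 0.985, 1.77 and 1.26 FPKM in the control libraries and at 10.7, 10.4, 11, 10.6 and 9 FPKM in the AOM/DSS libraries. Il18 rose from 12.8 ± 0.382 to 34.4 ± 3.06 FPKM. Il33 rose from 2.19 ± 0.29 to 5.74 ± 0.549 FPKM. The receptor antagonist Il1rn rose from 29 ± 4.87 to 54.8 ± 8.8 FPKM. Il18bp, the interferon-induced trap for interleukin-18, fell from 13.6 ± 1.39 to 5.43 ± 0.503 FPKM, opposite to its ligand.

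Downstream of these cytokines, 18 of 21 NF-kB and feedback genes rose and none fell (relative median 0.35). Tnf rose from 1.2 ± 0.196 to 5.8 ± 0.431 FPKM. The inhibitor Nfkbie rose from 2.68 ± 0.463 to 5.64 ± 0.323 FPKM. The adhesion molecule Icam1 rose from 6.58 ± 0.429 to 12.4 ± 0.843 FPKM. In the group of interleukins 6, 10, 17 and 22 with STAT3, 12 of 17 tested rose. Socs3, the feedback inhibitor of STAT3, stood at 4.62, 5.4, 5.19, 5 and 5.94 FPKM in the control libraries and at 16.1, 14.1, 15, 16.6 and 14.9 FPKM in the AOM/DSS libraries. Stat3 rose from 38.8 ± 0.95 to 55.6 ± 1.02 FPKM. Il23a rose from 0.0322 ± 0.0441 to 2.5 ± 0.577 FPKM, from under the filter in control. The decoy receptor Il22ra2 fell from 1.37 ± 0.152 to 0.689 ± 0.153 FPKM. Il17a was under the filter at 0.0536 ± 0.0369 FPKM in control and 0.0372 ± 0.0399 in AOM/DSS. Among oxidases 8 of 11 rose and 1 fell, with the nitric oxide synthase Nos2 rising from 3.34 ± 0.239 to 12 ± 0.795 FPKM. Duox2 rose from 46.8 ± 0.87 to 67.5 ± 1.3 FPKM. Its partner Duoxa2 rose from 37 ± 1.49 to 77 ± 3.42 FPKM. The colon oxidase Nox1 was not called at 9.87 ± 0.489 FPKM in control and 10.4 ± 0.679 in AOM/DSS. Of 15 Toll-like receptor genes 8 rose and 4 fell (relative median 0.04), against 45.5% higher and 20.6% lower among all genes. Tlr2 rose from 9.32 ± 0.301 to 14 ± 0.381 and Tlr4 fell from 4.64 ± 0.278 to 3.28 ± 0.208 FPKM.

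Antimicrobial and acute phase genes moved strongly in both directions, 10 higher and 10 lower of 22. The relative median of the list, -0.13, turned positive after quantile normalization. Lcn2, which starves bacteria of iron, stood at 4.39, 4.01, 4.93, 5.19 and 5.89 FPKM in the control libraries and at 78.9, 84.7, 78.1, 77 and 76.6 FPKM in the AOM/DSS libraries. The serum amyloids Saa3 and Saa1 rose from 2.88 ± 0.875 to 31.6 ± 3.39 and from 179.6 ± 7.87 to 324 ± 13.1 FPKM. Lactoferrin, Ltf, rose from 0.204 ± 0.141 to 4.19 ± 1.4 FPKM, from under the filter in control. The lectin Reg4 rose from 71.7 ± 2.33 to 191 ± 5.44 FPKM. Reg1 fell from 231 ± 6.74 to 43.1 ± 2.61 FPKM. Retnla fell from 20.5 ± 2.22 to 3.84 ± 0.626 FPKM. Reg3b fell from 178 ± 5.71 to 146 ± 3.42 FPKM, and Reg3g was not called at 57.3 ± 2.36 FPKM in control and 59 ± 1.52 in AOM/DSS. Reg1 is a pancreatic product, and the part of the pancreatic list in it was not tested. In the complement system 11 of 17 rose and 1 fell, with C3 rising from 37.4 ± 0.761 to 69.4 ± 1.58 FPKM. The protease Cfi rose from 0.0474 ± 0.0355 to 8.86 ± 0.617 FPKM, from under the filter in control.

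Lipid mediators changed by enzyme. Hpgd, which breaks prostaglandins down, stood at 102, 103, 98.4, 99 and 102 FPKM in the control libraries and at 42.6, 36.9, 38.4, 40.5 and 39.4 FPKM in the AOM/DSS libraries, lower in every AOM/DSS library. The prostaglandin E synthase Ptges rose from 1.92 ± 0.206 to 5.17 ± 0.147 FPKM. The exporter Abcc4 rose from 3.42 ± 0.269 to 14.9 ± 0.14 FPKM. Ptgs2 (COX-2) was at 0.998 ± 0.344 FPKM in control and 1.38 ± 0.0993 in AOM/DSS, a rise lost with size factors, with quantiles equalised, in the exact rank test and without control replicate 1 or 3. Of 15 tested phospholipase A2 genes 9 rose and 3 fell. Pla2g2f, a secreted form, rose from 9.99 ± 0.642 to 20.4 ± 0.603 FPKM. Pla2g4f rose from 0.615 ± 0.121 to 3.08 ± 0.182 FPKM, from under the filter in control. Pla2g1b, the pancreatic enzyme, fell from 182 ± 6.38 to 30.8 ± 2.13 FPKM with the pancreatic list, and Pla2g4c fell too, as given above.

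Myeloid and mast cell genes rose while the common leucocyte marker Ptprc fell. All 8 tested neutrophil genes of 18 listed were higher (relative median 1.51), 4 of them under 1 FPKM in control, which partly fixed this direction. S100a8 was listed at 0 in every control library and stood at 0 ± 0 FPKM in control and 11.6 ± 2.48 in AOM/DSS. Mmp9 rose from 1.09 ± 0.122 to 16.7 ± 0.884 FPKM. Ly6g rose from 9.47 ± 1.28 to 40.3 ± 4.11 FPKM. Macrophage and monocyte genes rose in 17 of 21 cases and fell in 4 (relative median 0.39). Arginase, Arg1, went from 0.982 ± 0.276 to 11.7 ± 0.776 FPKM. Gpnmb rose from 2.93 ± 0.222 to 12.7 ± 0.234 FPKM. The lysozyme Lyz2 rose from 127 ± 5.1 to 347 ± 6.92 FPKM. C1qa rose from 64 ± 1.91 to 114 ± 1.74 FPKM. Ly6c2, of inflammatory monocytes, fell from 43.3 ± 1.24 to 22.6 ± 1.02 FPKM. The resident marker Cd163 fell from 1.94 ± 0.114 to 0.923 ± 0.164 FPKM. Of 8 tested mast cell genes 7 rose by at least 2-fold, with Mcpt1 at 4.95, 4.36, 3.51, 4.11 and 5.37 FPKM in the control libraries and at 48.8, 47.5, 46.8, 51.2 and 51.4 FPKM in the AOM/DSS libraries. Mcpt2 rose from 1.76 ± 0.322 to 21.5 ± 1.62 FPKM. Cma1 rose from 0.124 ± 0.0891 to 5.21 ± 0.767 FPKM. Of the 8, 5 were under 1 FPKM in control, which partly fixed their direction. The member that fell was Kit, the stem cell factor receptor that interstitial cells of the gut muscle also carry, from 22.8 ± 0.697 to 13.9 ± 0.501 FPKM.

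In the interferon system the median change of receptors and transducers was near that of all genes, and all 40 tested effectors fell. Interferons bind receptors at the cell surface, whose kinases activate STAT proteins, and these induce effector genes through a DNA element called ISRE. Of 14 tested interferons, receptors and transducers 10 rose and 3 fell, none by 2-fold (6 and 3 with size factors), with a relative median of 0.06. The receptor chains Ifnar1, Ifngr2 and Ifnlr1 rose from 11.1 ± 0.873 to 17 ± 0.68, from 32.9 ± 2.67 to 48.8 ± 3.26 and from 2.57 ± 0.208 to 4.43 ± 0.326 FPKM. Irf1 and Irf8, transcription factors that interferon itself induces, fell from 111 ± 3.29 to 89.1 ± 3.07 and from 35.5 ± 0.65 to 26.7 ± 0.999 FPKM. The feedback inhibitor Socs1 fell from 3.06 ± 0.268 to 1.15 ± 0.0886 FPKM. The DNA sensor adaptor Sting1 stood at 8.12, 5.96, 6.43, 7.36 and 5.83 FPKM in the control libraries and at 34.5, 36.7, 37.1, 38.3 and 37 FPKM in the AOM/DSS libraries, far higher in every AOM/DSS library. Of 17 nucleic acid sensors 11 fell. The nuclease Trex1 fell from 19.6 ± 1.14 to 9.81 ± 1.11 FPKM and the RNA editor Adar fell from 36.6 ± 1.34 to 19.8 ± 0.496 FPKM.

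All 40 tested interferon-stimulated effectors fell, 33 by at least 2-fold, with a relative median of -1.62, against 20.6% and 1.91% of all genes. Isg15, a ubiquitin-like modifier, stood at 83.3, 85.3, 84.7, 87.3 and 82.6 FPKM in the control libraries and at 10.3, 12.2, 13.3, 11.5 and 10.8 FPKM in the AOM/DSS libraries. Ifit1, which binds viral RNA, stood at 39.1, 39.4, 39, 42.3 and 39.5 FPKM in the control libraries and at 3.97, 3.63, 4.3, 5.43 and 4.57 FPKM in the AOM/DSS libraries. The groups were far apart in both, with log2 changes of -2.77 (limma adjusted p = 1.62e-17) and -2.93 (limma adjusted p = 1.66e-16). The master regulator Irf7 fell from 252.4 ± 8.67 to 106 ± 1.91 FPKM. Immunity-related GTPases, which attack vacuoles of intracellular microbes, fell in 10 of 11 tested cases (relative median -1.62), with Irgm1 falling from 60.3 ± 0.726 to 15.7 ± 0.574 FPKM. Igtp fell from 40.4 ± 0.826 to 8.69 ± 0.401 FPKM. Of 7 guanylate-binding proteins 4 were called, all lower, and with size factors all 7 were lower. Gbp3 fell from 10.9 ± 0.666 to 2.52 ± 0.287 FPKM. Gbp2 fell from 20.1 ± 0.589 to 10.2 ± 0.563 FPKM. Apolipoprotein L genes fell in 7 of 8 cases. Leucocyte markers moved in the same libraries, Ptprc lower and macrophage genes higher, and their part in these falls was not tested.

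Promoter stretches are shown for 7 of these genes whose promoter held the DNA element. The searched core of the ISRE was GAAANNGAA on either strand, and each stretch ends before the transcription start, is written along the gene's own strand with the matches in capitals, and comes from RefSeq (GRCm38.p6). Overlapping matches run together into 1 block of capitals. The stretches lie at chr4:156200861-156200911 on the minus strand for Isg15, chr19:34640765-34640828 on the plus strand for Ifit1, chr8:61928019-61928086 on the plus strand for Ddx60, chr15:77411109-77411153 on the minus strand for Apol9a, chr11:58199507-58199545 on the plus strand for Igtp, chr11:48871421-48871465 on the minus strand for Irgm1 and chr3:142559985-142560029 on the plus strand for Gbp3.
Isg15: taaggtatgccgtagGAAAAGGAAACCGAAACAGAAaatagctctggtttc
Ifit1: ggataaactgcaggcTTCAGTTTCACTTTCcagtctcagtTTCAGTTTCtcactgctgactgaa
Ddx60: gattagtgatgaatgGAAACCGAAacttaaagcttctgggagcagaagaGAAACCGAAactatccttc
Apol9a: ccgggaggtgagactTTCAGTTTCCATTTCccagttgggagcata
Igtp: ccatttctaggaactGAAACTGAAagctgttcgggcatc
Irgm1: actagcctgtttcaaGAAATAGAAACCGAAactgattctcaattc
Gbp3: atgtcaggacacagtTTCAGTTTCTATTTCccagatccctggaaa

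Isg15 and Ifit1 held 3 matches each, Ddx60, Apol9a, Irgm1 and Gbp3 2 and Igtp 1. A second Gbp3 promoter in the table held none. Over the promoter table, 2638 of 27025 genes (9.76%) held a match within the 300 bases searched. Of effectors with a promoter there, 17 of 29 held one, among genes at least 2-fold lower 45 of 158, and among genes at least 2-fold higher 32 of 366. Oasl2, Irf7, Tap1 and Psmb8 fell with no match in this window. The table matched only 158 of the 247 lower and 366 of the 537 higher genes, under 80% of either set, so a comparison of these shares is void and the counts describe only the matched genes.

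**Figure D4:**
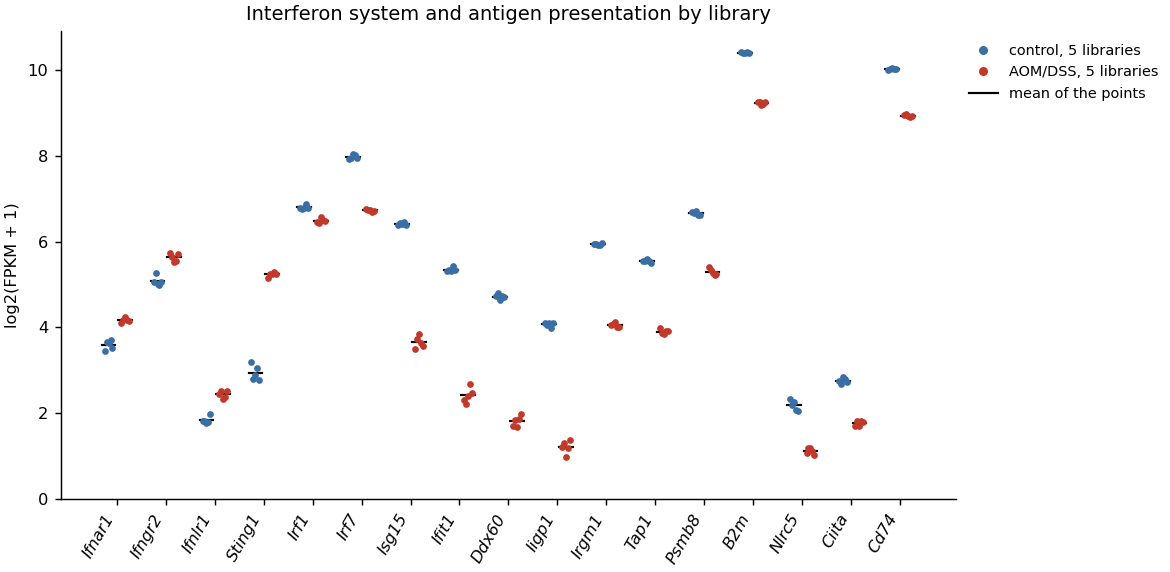
Level of 17 genes of the interferon system and of antigen presentation as log2(FPKM + 1) in each of 5 control (blue) and 5 AOM/DSS (red) libraries, ordered from receptors through sensors and transcription factors to effectors and presentation. Receptor chains and Sting1 are higher in AOM/DSS and every gene from Irf1 to Cd74 is lower, with no overlap for Isg15, Ifit1, Ddx60 and Iigp1.

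Antigen presentation fell with the effectors. Of 28 genes for MHC class I and the immunoproteasome 24 fell, 11 by at least 2-fold, and 2 rose (relative median -0.83). B2m, the invariant chain of class I, stood at 1386, 1358, 1346, 1368 and 1355 FPKM in the control libraries and at 608, 611, 581, 591 and 611 FPKM in the AOM/DSS libraries. The transactivator Nlrc5 fell from 3.55 ± 0.37 to 1.18 ± 0.106 FPKM. The peptide transporter Tap1 fell from 45.9 ± 1.04 to 14 ± 0.559 FPKM. The immunoproteasome subunit Psmb8 fell from 100.5 ± 2.72 to 38.4 ± 2.22 FPKM. Constitutive proteasome subunits, the general protein disposal machine, stayed near the median of all genes (relative median -0.06), 13 higher and 5 lower of 34, or 7 and 14 with size factors. MHC class II genes fell in 8 of 12 tested cases and none rose, with the transactivator Ciita falling from 5.77 ± 0.278 to 2.4 ± 0.142 FPKM. The class II chain H2-Aa was reduced from 418 ± 6.74 to 169.9 ± 5.79 FPKM. Inflammasome and gasdermin genes fell in 11 of 19 cases and rose in 5: Gsdmc4, the most abundant gasdermin here, fell from 424 ± 9.4 to 218 ± 5.96 FPKM. The sensor Nlrp6 fell from 64.2 ± 1.79 to 45.2 ± 1.04 FPKM. Gsdmd, which opens pores in dying cells, rose from 49.8 ± 3 to 61.2 ± 2.31 FPKM.

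Cytotoxic and T cell genes were mostly lower. Of 8 tested cytotoxic genes 7 fell, Gzmb standing at 6.46, 6.31, 6.28, 6.29 and 7.62 FPKM in the control libraries and at 2.16, 1.86, 1.47, 1.36 and 1.45 FPKM in the AOM/DSS libraries and Cd7 falling from 7.24 ± 0.677 to 2.57 ± 0.962 FPKM. Of 19 T cell genes 11 fell and 2 rose (relative median -0.38). Cd8a fell from 3.59 ± 0.541 to 1.18 ± 0.109 FPKM. Cd3e fell from 4.36 ± 0.309 to 2.45 ± 0.523 FPKM. Cd4 rose from 4.12 ± 0.355 to 6.25 ± 0.617 FPKM and Trac was not called at 5.59 ± 0.741 FPKM in control and 5.42 ± 0.895 in AOM/DSS. Of 11 B cell genes 3 fell, 1 rose and 7 were not called (relative median -0.21), against 20.6% of all genes lower. Ms4a1 was among those that fell, from 1.44 ± 0.317 to 0.73 ± 0.121 FPKM.

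Immunoglobulin genes shifted between isotypes. Igha, the heavy chain of the IgA that the gut secretes, stood at 4919, 5022, 5018, 5056 and 5067 FPKM in the control libraries and at 3003, 3002, 2957, 2883 and 2904 FPKM in the AOM/DSS libraries, lower in AOM/DSS. The IgG heavy chains went the other way, with Ighg1 at 58.5, 64.2, 59.2, 61.8 and 61.8 FPKM in the control libraries and at 180.4, 173, 184, 175 and 179 FPKM in the AOM/DSS libraries. Ighg2b rose from 116 ± 3 to 231 ± 2.65 FPKM. Ighg3 rose from 9.9 ± 0.782 to 33.6 ± 1.2 FPKM. Ighm rose from 36.7 ± 0.697 to 73.4 ± 1.99 FPKM. The lambda light chains Iglc1, Iglc2 and Iglc3 fell, Iglc2 from 64.1 ± 5.76 to 28.1 ± 2 and Iglc3 from 43.3 ± 3.46 to 7.67 ± 0.894 FPKM, genes that are close copies of each other. Plasma cell genes fell in 10 of 12 cases, with the joining chain Jchain falling from 499.7 ± 11.2 to 192 ± 9.27 FPKM. The cytokine receptor Tnfrsf17 fell from 2.9 ± 0.23 to 1.49 ± 0.374 FPKM. Prdm1 and Sdc1, which epithelium also expresses, rose from 1.67 ± 0.145 to 2.98 ± 0.243 and from 109 ± 3.18 to 148 ± 1.68 FPKM.

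Matrix genes rose. Of 26 tested collagens 19 rose, 7 by at least 2-fold, and 2 fell (relative median 0.54). Control means were under 1 FPKM for 3 of them and AOM/DSS means for 2, so the filter could partly fix those directions. Col1a1, the main fibrillar collagen, stood at 18.7, 19.1, 19.9, 19.5 and 19.1 FPKM in the control libraries and at 49.3, 51, 52, 50.3 and 48 FPKM in the AOM/DSS libraries. Col3a1 rose from 71.3 ± 2.63 to 142 ± 5.74 FPKM. The basement membrane collagen Col4a1 rose from 36.3 ± 1.46 to 89.9 ± 4.48 FPKM. Col18a1 rose from 12.8 ± 0.591 to 37.7 ± 1.63 FPKM. Col8a1 fell from 4.41 ± 0.237 to 1.71 ± 0.126 FPKM. Of 17 tested metalloproteinases and inhibitors 16 rose and none fell (relative median 0.66). Control means were under 1 FPKM for 3 of the 17, Mmp10 among them, which partly fixed their direction. Mmp10 rose from 0.798 ± 0.175 to 13.2 ± 1.12 FPKM. The inhibitor Timp1 rose from 1.24 ± 0.319 to 6.9 ± 0.81 FPKM. Matrix glycoproteins and proteoglycans rose in 20 of 25 cases. Fibronectin, Fn1, rose from 36.8 ± 0.331 to 109.8 ± 1.9 FPKM. Thbs1 rose from 15.2 ± 0.336 to 37.7 ± 0.701 FPKM. Periostin, Postn, fell from 44 ± 1.32 to 27.5 ± 0.961 FPKM. Among integrins and laminins 18 of 26 rose and 3 fell, led by subunits of basement membrane laminins. Lama3 rose from 4.47 ± 0.362 to 23.1 ± 0.857 FPKM and Lama5 rose from 2.49 ± 0.168 to 9.83 ± 0.434 FPKM.

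Other stromal lists parted. Endothelial genes rose in 11 of 16 cases and none fell, none by 2-fold, with Vwf rising from 5.98 ± 0.153 to 10.9 ± 0.198 and Cdh5 from 7.01 ± 0.451 to 12 ± 0.35 FPKM. Smooth muscle genes stayed near the median of all genes, 5 higher and 4 lower of 17, or 1 and 11 with size factors, and Acta2 was not called at 497 ± 10.4 FPKM in control and 505 ± 7.61 in AOM/DSS. Enteric neuron and glia genes fell in 12 of 17 cases and rose in 2 (relative median -0.81), with the neuropeptide Vip falling from 21.7 ± 1.19 to 8.79 ± 0.547 FPKM. The synaptic protein Snap25 fell from 7.43 ± 0.463 to 3.26 ± 0.454 FPKM. Ret rose from 4.21 ± 0.225 to 8.76 ± 0.702 FPKM. Regulators of epithelial-mesenchymal transition had a median change near that of all genes (relative median 0.06), 5 higher and 2 lower of 9. Vim rose from 75.2 ± 2 to 145 ± 2.11 FPKM. The epithelial cadherin Cdh1 rose from 222 ± 2.39 to 304 ± 3.94 FPKM. The mesenchymal cadherin Cdh2 fell from 1.88 ± 0.112 to 1.05 ± 0.144 FPKM.

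**Figure D5:**
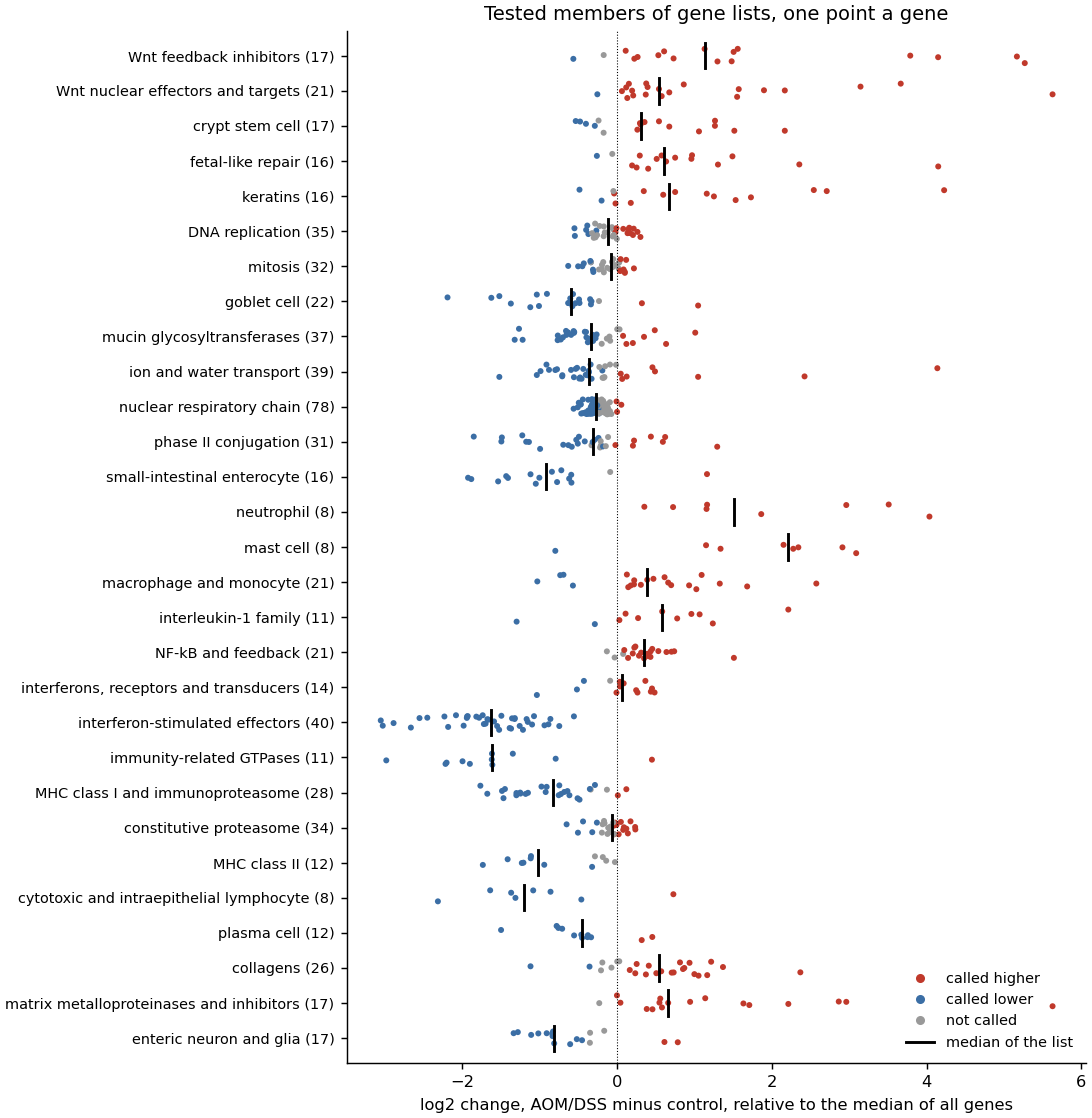
Log2 change of each tested member of 29 gene lists, AOM/DSS minus control and relative to the median of all genes (x axis), with the list's median as a black line and the number of tested members in brackets. Points of the Wnt feedback inhibitors, neutrophil and mast cell lists lie mostly to the right, the 40 interferon-stimulated effectors all lie to the left, and the DNA replication and mitosis lists lie close to 0.

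Lists that follow the time of day and handling also differed between the groups. Circadian clock genes fell in 10 of 17 cases and rose in 4: Dbp, an output of the clock, fell from 42.1 ± 2.62 to 20.9 ± 0.907 FPKM. Arntl, its positive arm, rose from 4.17 ± 0.298 to 6.7 ± 0.459 FPKM. Immediate early and heat shock genes rose in 12 of 15 cases and fell in 1, with Fos rising from 40 ± 0.768 to 51.2 ± 2.06 FPKM. Hspa1a rose from 6.13 ± 0.643 to 15 ± 0.851 FPKM. Collection time and handling cannot be told apart from the treatment with these labels.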

How the data were processed

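RNA from 15 colon libraries was sequenced, and the authors deposited 1 table of FPKM values per gene and library. Tools named per the submitters' processing notes, with no role or order, are StringTie 1.3.1, RSEM, HISAT2, fastp 0.18.0 and Bowtie2 2.2.8, and the genome build and annotation are not given in the sources used here. FPKM are not counts, so no count test was used. FPKM were not rescaled, and a group rich in a few abundant transcripts can shift all other values.

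Groups follow the treatment in the labels. Genes reaching 1 FPKM in 5 or more of 15 libraries were fitted with limma 3.58.1 (R 4.3.3) on log2(FPKM + 1), with 1 mean per group, all 15 libraries sharing the spread, empirical Bayes with a trend, a two-sided test and Benjamini-Hochberg adjustment over all tested genes at 0.05. On this scale the change of a low gene is understated. The script was tested on simulated data. Tables and plots used Python 3.11.15 with pandas 2.3.3, numpy 2.4.6, scipy 1.17.1 and matplotlib 3.10.9.

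Depth was read from low FPKM values, which are multiples of 1 fragment, as the depth at which these values came closest to whole numbers. At that depth 87.7% of the same 3639 values came out whole within 0.1. The chance share of 20% holds for a depth not chosen from the values. Named genes are the 10 largest rises and 10 largest falls without overlap and with means of at least 1 FPKM in both groups, leaving out unnamed models, pseudogenes, variable segments and the pancreatic, accessory gland and Paneth lists. For each of 85 lists they are up to 3 called members with the largest change in its main direction, up to 2 the other way, the most abundant member and members marked as key. The members and lists were chosen with earlier results of these data known, so they support nothing independently. Some genes that this rule names are not reported here. Replicate numbers do not pair the libraries (closing section). Promoters, 250 bases before to 50 after the start, are from RefSeq (GRCm38.p6). They were matched by Ensembl gene ID where that led to a promoter, and otherwise by symbol. Alternatives covered scaling, pseudocount, filter, libraries in the fit, trend, an exact rank test, the replicate block and leaving out each library.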

Additional observations from a re-analysis of the deposited data

Results flagged for a closer look

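For the genes named in the text, 671 groups of 5 libraries were examined. In 36 of them (5.37%) the highest or lowest library lay apart, its gap to the nearest of the others exceeding 0.71 of the group's range (Dixon's limit for 5 values). Chance flags about 1 in 20 groups. Values below are FPKM, and no library holds more than 7 of them. In AOM/DSS replicate 1 these were Ctnnb1 at 316, Fn1 at 113, Il23a at 3.52 and Tgfa at 20.1. In AOM/DSS replicate 2 these were Cdkn1a at 143, Evx1 at 13.4, Igtp at 9.4, Lcn2 at 84.7, Mt3 at 64.6, Sp5 at 14.7 and Spock2 at 164. In AOM/DSS replicate 4 these were Bmp3 at 5.49 and Cxcl5 at 22.1. In AOM/DSS replicate 5 these were C1galt1c1 at 15.6, Dkk2 at 2.53 and Hspa5 at 142. In control replicate 1 these were Acsm3 at 37.9, Cdh2 at 1.68, Prox1 at 1.09 and Slc30a2 at 0.548. In control replicate 2 these were Ccl5 at 33.1, Ifngr2 at 37.5, Ighv2-2 at 217, Il18 at 13.5 and Wnt5a at 2.41. In control replicate 3 these were Idi1 at 57.8 and Nos2 at 2.92. In control replicate 4 these were Atf4 at 112, Ifit1 at 42.3, Igtp at 39, Il33 at 2.7 and Muc6 at 0.147. In control replicate 5 these were Gzmb at 7.62, Ifnlr1 at 2.94, Ptgs2 at 1.6 and Trex1 at 17.6. Of these genes only Ptgs2 lost its call when 1 library was left out, as given above.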

How the results depend on the processing

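Of 784 changes of at least 2-fold, 779 kept call and direction in every one of the 22 alternatives in which they were tested, as did 309 of the 315 called genes named in the text. Scaling moved the direction of calls: after quantile normalization 3765 genes were called higher and 4167 lower, and the median log2 change of all genes, 0.12 as deposited, was 0.16 with TPM, 0.0957 with a common total without other organs' lists, 0.0123 with size factors, -0.0156 after quantile normalization, 0.11 with means of at least 1 FPKM in both groups, 0.0465 with no filter and 0.13 with a pseudocount of 0.1. Changes of at least 2-fold moved more with the pseudocount and the filter: a pseudocount of 0.1 gave 1104 (745 higher, 359 lower), and means of at least 1 FPKM in both groups gave 529, of which 310 were higher. The log2 change turned with size factors for Acta2 (-0.0984), Cldn2 (-0.0777) and Hk2 (-0.0761), and after quantile normalization for Ceacam1 (0.12), Krt8 (0.26), Ldha (0.19) and Cldn2 (-0.0674); the cause was not tested. Leaving out 1 library gave 8227 to 8338 calls, 5668 to 5736 higher and 2538 to 2618 lower, and 777 to 802 of at least 2-fold, 535 to 549 higher and 242 to 255 lower. Replicate numbers did not pair the libraries (correlations of deviations from -0.018 to 0.020, none highest with its own number), and with the replicate block 8485 genes were called, 5849 higher and 2636 lower. Of 17 genes named as not called, 14 were called in some alternative. WMW-H replicate 3 stood apart, differing from other WMW-H libraries by 40.8 to 48.4 times counting noise over 2000 fragments, and it enters the shared spread. Without it, an alternative chosen after seeing the data, 8739 genes were called, 6004 higher and 2735 lower. FPKM give no count error, and values under 1 FPKM rest on fewer fragments.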

Other observations

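Genes outside the lists, chosen after their values were seen, also parted between the groups. The transcription factors Sox17 and Evx1, of endoderm and posterior development, rose from 1.3 ± 0.522 to 18.3 ± 1.48 and from 1.58 ± 0.189 to 12.4 ± 0.602 FPKM. Stra6, a retinol-binding protein receptor, rose from 0.529 ± 0.114 to 70.2 ± 3.99 FPKM, a control level under 1 FPKM that partly fixed this direction. The enzyme Aldh1a3, which makes retinoic acid, rose from 2.85 ± 0.171 to 24.9 ± 0.756 FPKM. Ifitm1 rose from 18.8 ± 2.06 to 148 ± 5.03 FPKM, a member of an interferon-induced family moving against the effectors. The uridine phosphorylase Upp1 stood at 162, 171, 184, 162 and 169.6 FPKM in the control libraries and at 30.8, 34.1, 31.5, 34.9 and 34.3 FPKM in the AOM/DSS libraries, and the trefoil peptide Tff2 fell from 78.5 ± 3.41 to 16.6 ± 0.82 FPKM. The bile acid receptor Nr1h4 fell from 33.2 ± 1.27 to 15.8 ± 0.585 FPKM and the Schlafen genes Slfn4 and Slfn5 from 6.26 ± 0.342 to 1.87 ± 0.181 and from 6.88 ± 0.829 to 2.11 ± 0.392 FPKM.

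Immunoglobulin variable segments differed between groups far more than within them. Of 164 tested segments 57 were higher and 75 lower in AOM/DSS, 31 and 35 by at least 2-fold. Ighv2-2 stood at 175, 217, 162, 171 and 171 FPKM in the control libraries and at 8.64, 9.01, 7.6, 10.9 and 8.15 FPKM in the AOM/DSS libraries. Over these segments the lowest correlation between a pair of libraries was 0.983 within control and 0.970 within AOM/DSS, and correlations between the groups ran from 0.737 to 0.762, as a description across segments that share cells and libraries. Libraries of a group thus carried nearly the same mixture of segments, while the labels name no animals.

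Genes of the Y chromosome, chosen after their values were seen, were also lower: Eif2s3y stood at 13.8, 15.6, 13.7, 16 and 14 FPKM in the control libraries and at 7.49, 8.27, 8.78, 7.22 and 7.44 FPKM in the AOM/DSS libraries. Ddx3y fell from 5.84 ± 0.588 to 3.55 ± 0.425 FPKM. The sex of the animals was not given in the sources used here.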
